A study of Caenorhabditis elegans with 24 samples.

Results

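The genes described here encode the 5 Wnt ligands and the Frizzled and Ror receptors of Caenorhabditis elegans. They were cwn-1, cwn-2, egl-20, lin-44 and mom-2 for the ligands, mig-1, lin-17, mom-5 and cfz-2 for the Frizzleds, and cam-1 for Ror. A probe set, a group of short probes whose signals are combined into 1 value, was included when the probe annotation gave it a single gene symbol and that symbol belonged to one of these 10 genes. This rule took 15 of the 22548 probe sets tested, 5 for ligands, 8 for Frizzleds and 2 for cam-1, and 10 of the 17118 genes named on the array. The ligands had 1 probe set each and every receptor gene had 2. All 15 probe sets entered every test, since no filter on low intensity was applied.

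Transcripts were profiled on an Affymetrix C. elegans array to find those enriched in neurons of embryos and L2 larvae. The embryonic pan-neural sample (3 arrays) came from the strain with the transgene evIs111, which makes GFP under the F25B3.3 promoter in neurons. Its embryos were dissociated, the cells kept in culture for 24 h, and the GFP-positive cells sorted, so the sample holds cultured neurons. The embryonic reference (4 arrays) was all viable embryonic cells in culture, profiled earlier than the neurons. The paper names neither the strain nor the time in culture of that reference. The larval pan-neural sample (3 arrays) came from L2 larvae with the integrated transgene gaIs153, which makes the FLAG-tagged poly(A)-binding protein PAB-1 under the same F25B3.3 promoter, and RNA bound to the tagged protein was pulled down with an anti-FLAG antibody (mRNA tagging). The larval A-class sample (4 arrays) came from L2 larvae carrying wdEx257, an extrachromosomal array that makes 3XFLAG::PAB-1 under the unc-4 promoter. In L2 larvae the paper reports strong activity of that promoter in the VA and SAB motor neurons, I5 and AVF. Activity in the DA motor neurons was weaker and sporadic at that stage. The larval reference (5 arrays) was RNA that stuck nonspecifically in mock pull-downs from wild-type N2 L2 larvae. The same 5 hybridizations served the larval pan-neural and the larval A-class sample, so both larval comparisons share their reference. Each neuronal sample and its reference were normalized together as a separate set, which leaves levels comparable within a set and a probe set only, and across sets only the difference from the own reference, called enrichment here.

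Wnts are secreted glycoproteins that bind the cysteine-rich domain of Frizzled receptors at the cell surface, and Ror and Ryk receptors form further routes for the signal. In the cell, Dishevelled relays it to beta-catenin and the TCF factor POP-1, or to cytoskeletal routes related to planar cell polarity. In the worm these proteins are known for orienting asymmetric cell divisions, for steering migrating neuroblasts such as the Q cells and their descendants along the body, and for placing axons and synapses.

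Several facts of the arrays bear on the values below. Embryonic pan-neural replicate 3 correlated less with the mean of the other arrays of its group (r = 0.966) than replicates 1 and 2 did (0.988 and 0.981). No hybridization day held both an embryonic pan-neural and an embryonic reference array or both an A-class and a larval reference array, and 1 day held 2 larval pan-neural arrays and 2 larval references. In the embryonic set each chip lot held arrays of 1 group only. Larval A-class replicate 1 had a wash protocol that no other array had, and the part of that protocol in its values was not tested. A list of 10 general neuron genes (19 probe sets) had a median enrichment of 1.00 on the log2 scale in embryonic pan-neural cells, with 2 probe sets called higher, of 1.30 in larval pan-neural RNA, with 15, and of 0.37 in larval A-class RNA, with 2. A-class markers (unc-4, unc-3, unc-17, cho-1 and acr-2, 8 probe sets) had a median of 1.06 in the A-class sample, with 6 called higher, of 1.46 in the larval pan-neural sample, with 7, and of 0.39 in embryonic pan-neural cells, with 2. The GABA neuron markers unc-25, unc-47 and unc-30 had a median of −0.12 in the A-class sample, with 0 of 4 probe sets called by limma.

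A probe set was called when limma gave an adjusted p under 0.01 and the change was at least 1.5-fold. P-values were adjusted by the Benjamini-Hochberg method across the 22548 probe sets. The study applied the same cut-offs with SAM, another test, and listed more enriched genes in embryonic pan-neural and A-class neurons. A probe set not called here may thus be on the study's lists. By the limma rule 1 of the 15 Wnt ligand and receptor probe sets was lower in embryonic pan-neural cells than in their reference, where 2.78% of all probe sets were lower, and 0 were higher, where 1.96% of all were. These 2 shares depend on single arrays, since leaving out 1 array left 89 to 762 of all probe sets lower and 24 to 566 higher, against 627 and 442. In the larval pan-neural sample 1 of 15 was higher, against 6.08% of all probe sets, and 0 were lower, against 3.34% of all. In the larval A-class sample 0 of 15 were called in either direction, where 0.776% of all probe sets were higher and 0.115% lower. These counts lie near the shares of the whole array and are no result about the family as a group. At an unadjusted p under 0.05 by limma there were 3 of the 15 in embryonic pan-neural cells, 5 in the larval pan-neural and 3 in the larval A-class sample, where 30.5%, 29.5% and 15.8% of all probe sets passed. At an adjusted p under 0.05, with no limit on the fold, there were 1, 3 and 1, where 14.8%, 18.9% and 3.34% of all passed. The median log2 change over the 15 was −0.24, 0.11 and 0.14 in that order, beside 0.04, 0.00 and −0.01 over all probe sets.

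**Figure D1:**
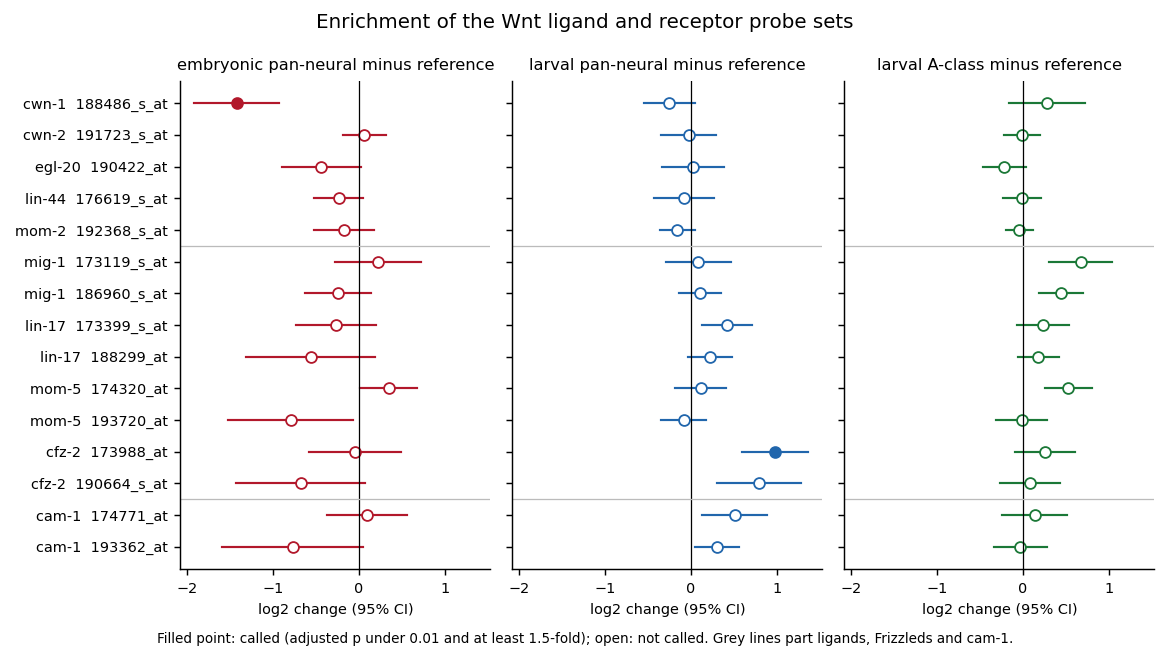
Log2 change of each of the 15 probe sets in embryonic pan-neural cells, the larval pan-neural sample and the larval A-class sample, each minus its own reference, with the 95% confidence interval from limma as a line. Filled points mark the 2 calls, cwn-1 in embryonic pan-neural cells at −1.42 and 1 probe set of cfz-2 in the larval pan-neural sample at 0.98.

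Of the ligands, cwn-1 was depleted in embryonic pan-neural cells, and no ligand was called in either larval sample. CWN-1 is a Wnt that acts with EGL-20 and CWN-2 in the migration of neurons and other cells along the body axis. Its probe set 188486_s_at had log2 intensities of 5.62, 6.09 and 5.65 in embryonic pan-neural cells, against 6.85, 7.24, 7.08 and 7.66 in the embryonic reference. The 2 groups did not overlap, and all 3 neuronal arrays lay below all 4 reference arrays. The log2 change was −1.42 ± 0.21 (SE), a 2.68-fold lower level with an adjusted p of 0.00574. The call rested on the full number of arrays. Leaving out any 1 array but embryonic reference replicate 1 moved the adjusted p past the threshold, to between 0.0107 and 0.0293, with log2 changes of −1.57 to −1.27, and without that array it was 0.00457. With hybridization day as a random block the change was −1.49 with an adjusted p of 0.0120, which also ends the call. Of the 5 marker lists for other cells, those of dividing cells, body wall muscle and the germline also had probe sets called lower in this comparison. Of the dividing-cell list, 6 of 8 probe sets were called lower (median −2.42, summed intensity 986 to 1463 in embryonic pan-neural cells and 4116 to 6632 in the reference), and of the body wall muscle list 9 of 23 were (median −1.30, 1918 to 2645 in the neurons and 5436 to 8891 in the reference). The germline list had 2 of 6 called lower (median −0.56, 318 to 368 in the neurons and 610 to 724 in the reference). The hypodermis list had 0 of 11 called by limma (median −0.42, 887 to 1230 in the neurons and 1751 to 2842 in the reference), and the intestine list had 1 of 10 called higher and 0 lower (median −0.33, 900.3 to 1121 in the neurons and 948 to 2100 in the reference). The part of these cells in the cwn-1 result was not tested. In these bulk samples, fewer cells with a transcript and less of it per cell cannot be told apart.

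In the larval pan-neural sample cwn-1 had log2 intensities of 6.75, 6.79 and 7.03, against 7.26, 7.03, 6.82, 7.10 and 7.31 in its reference. The groups overlapped and the change of −0.25 ± 0.13 (SE) did not pass (adjusted p 0.25). In A-class RNA it was 7.93, 6.87, 7.16 and 7.07, against 7.17, 6.84, 6.70, 7.03 and 7.15 in the larval reference. Replicate 1 was the highest array there and the other 3 lay within the range of the reference arrays, and the change of 0.28 ± 0.20 (SE) did not pass either (adjusted p 0.579). Embryonic and larval pan-neural enrichment differed by −1.17 ± 0.25 (SE, adjusted p 0.00750), and 1 of the 15 probe sets was called lower and 0 higher in that contrast, where 3.13% of all probe sets were lower and 1.88% higher. In the same contrast 3 of the 15 passed an adjusted p under 0.05, cwn-1 and both cfz-2 probe sets, where 12.4% of all did, and 6 an unadjusted p under 0.05, where 26.8% did. The call of cwn-1 in this contrast was lost without any 1 of 11 of the 15 arrays, with values of −1.23 to −1.02 and adjusted p of up to 0.0276, and it held without embryonic pan-neural replicate 2, embryonic reference replicate 1 or larval reference replicate 1 or 5. The larval A-class enrichment exceeded the larval pan-neural one by 0.53 ± 0.23 (SE), which did not pass (adjusted p 0.192). In this contrast the SE and p leave out the spread of the reference arrays, here and for the genes below.

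**Figure D2:**
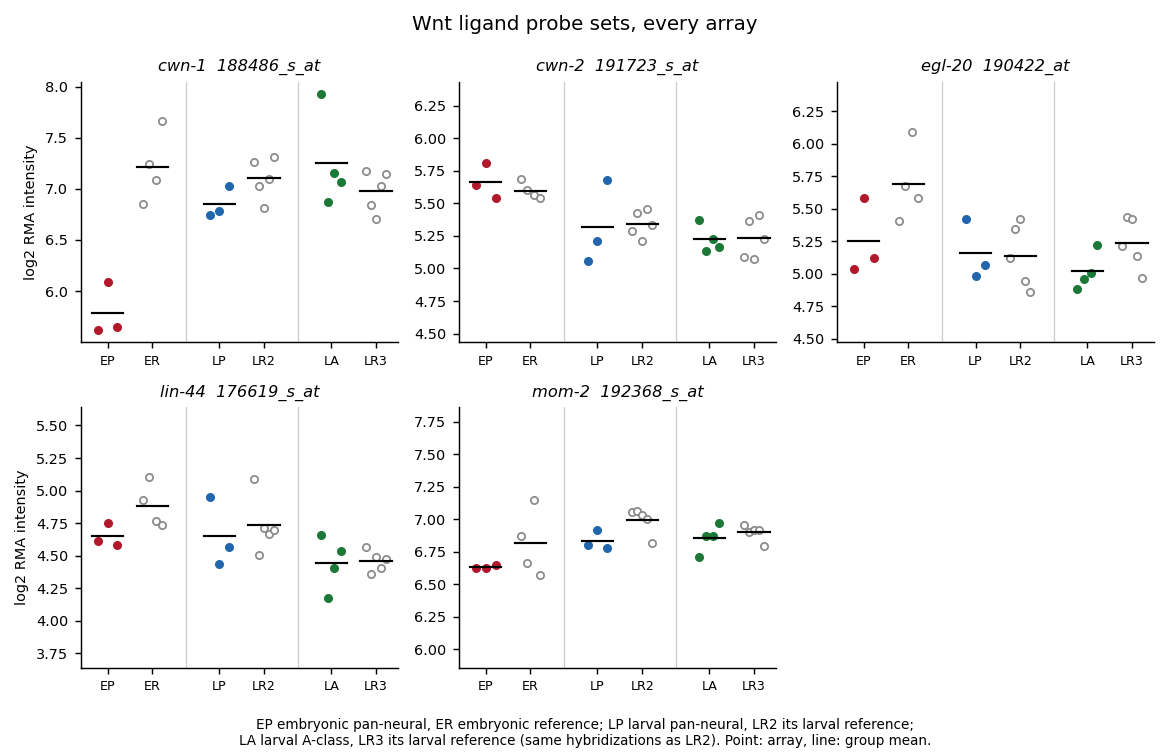
Log2 RMA intensity (y axis) of the 5 ligand probe sets in every array, with each neuronal sample to the left of its reference and a line at the group mean. The 3 embryonic pan-neural arrays of cwn-1 lie at 5.62 to 6.09, below all 4 embryonic reference arrays, while the groups of the other 4 ligands overlap in each comparison.

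The other 4 ligands gave values close to those of their references. EGL-20, made at the posterior of the animal, guides the Q neuroblasts, and its probe set read 5.04, 5.58 and 5.12 in embryonic pan-neural cells, against 5.41, 5.67, 6.09 and 5.58 in the embryonic reference. The 3 neuronal arrays lay at or below the middle of the reference arrays, and the change of −0.44 ± 0.20 (SE) did not pass (adjusted p 0.181). In the larval samples egl-20 differed from the reference by 0.02 in the pan-neural and −0.22 in the A-class sample (adjusted p 0.965 and 0.404). MOM-2 is the Wnt that signals between blastomeres of the early embryo. It read 6.63, 6.63 and 6.65 in embryonic pan-neural cells, against 6.88, 6.66, 7.15 and 6.57 in the reference, and its change was −0.18 there, −0.16 in the larval pan-neural and −0.04 in the larval A-class sample. LIN-44, which tail epidermis makes and which orients divisions and neurites there, had group means between 4.44 and 4.88 in all 6 groups, and CWN-2 had means between 5.22 and 5.66. These means correspond to the 21st to 34th and the 34th to 51st percentile of the probe sets on the array, so lin-44 lay in the lower part of the intensity range and cwn-2 between there and about its middle. The arrays of cwn-2 ran from 5.06 to 5.68 in the larval pan-neural sample and from 5.21 to 5.46 in its reference, so that neurons spanned the reference on both sides. The changes of lin-44 were −0.24, −0.08 and −0.02 and those of cwn-2 were 0.06, −0.03 and −0.01 in the same order. In both larval comparisons the number of ligand probe sets at an unadjusted p under 0.05 was 0 of 5 by limma, where 29.5% of all probe sets in the pan-neural and 15.8% in the A-class comparison were.

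Of the Frizzleds, cfz-2 was enriched in the larval pan-neural sample and was not called in the other neuronal samples. CFZ-2 takes part in the migration of neurons and in axon positioning in the worm. Its probe set 173988_at had log2 intensities of 9.08, 8.98 and 9.32 in the larval pan-neural sample, against 7.76, 8.13, 8.40, 7.98 and 8.48 in the larval reference. All 3 neuronal arrays lay above all 5 reference arrays. The log2 change was 0.98 ± 0.17 (SE), or 1.97-fold, with an adjusted p of 0.00374. The other probe set of the gene, 190664_s_at, had 6.92, 7.23 and 7.59 in the larval pan-neural sample, against 5.87, 6.41, 6.60, 6.67 and 6.75 in the reference. These groups did not overlap either, and the change of 0.79 ± 0.22 (SE), or 1.72-fold, had an adjusted p of 0.0325 and was not called.

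The call at 173988_at was lost without larval pan-neural replicate 1 (1.00, adjusted p 0.0163), larval pan-neural replicate 3 (0.88, 0.0242) or larval reference replicate 2 (0.98, 0.0121). Within the single hybridization day that held both groups, 2 arrays each, the change was 0.92, an alternative chosen after seeing the data, with an adjusted p of 0.0865 in a fit that called 0 of all probe sets. With only the 2 references whose title places them in the larval pan-neural set it was 0.90 (adjusted p 0.0408). General neuron genes moved with it, since 15 of 19 probe sets of that list were called higher in the larval pan-neural sample, with a summed intensity of 17972 to 24792 there and 5549 to 8580 in the reference, and their part in the cfz-2 result was not tested.

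The A-class arrays of cfz-2 173988_at read 8.57, 8.32, 7.97 and 8.28, against 7.68, 7.97, 8.23, 7.91 and 8.36 in the larval reference. The groups overlapped, and the changes of 0.26 ± 0.16 (SE) at this probe set and 0.09 ± 0.16 at 190664_s_at did not pass (adjusted p 0.497 and 0.869). In embryonic pan-neural cells it read 10.40, 10.20 and 9.69, against 9.86, 10.53, 9.87 and 10.30 in the embryonic reference. At 190664_s_at it read 8.75, 8.88 and 7.55, against 8.81, 9.24, 8.88 and 9.34. Replicate 3 was the lowest neuronal array at both probe sets and far below the other arrays at the second. The changes were −0.04 ± 0.23 and −0.67 ± 0.32 (SE), with adjusted p of 0.914 and 0.204, and without replicate 3 the second was −0.25 (adjusted p 0.426). The embryonic minus the larval pan-neural enrichment was −1.02 ± 0.30 at 173988_at and −1.46 ± 0.40 at 190664_s_at (SE), with adjusted p of 0.0353 and 0.0286, over the threshold for a call. The larval A-class minus the larval pan-neural enrichment was −0.72 ± 0.15 and −0.70 ± 0.18 (SE), with adjusted p of 0.0157 and 0.0329, and leaving out A-class replicate 1 brought the value at 173988_at to −0.82 with an adjusted p of 0.00907. In that contrast 0 of 15 probe sets were called, where 1.95% of all probe sets were higher and 3.76% lower, and 5 were at an unadjusted p under 0.05, where 26.2% of all were.

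**Figure D3:**
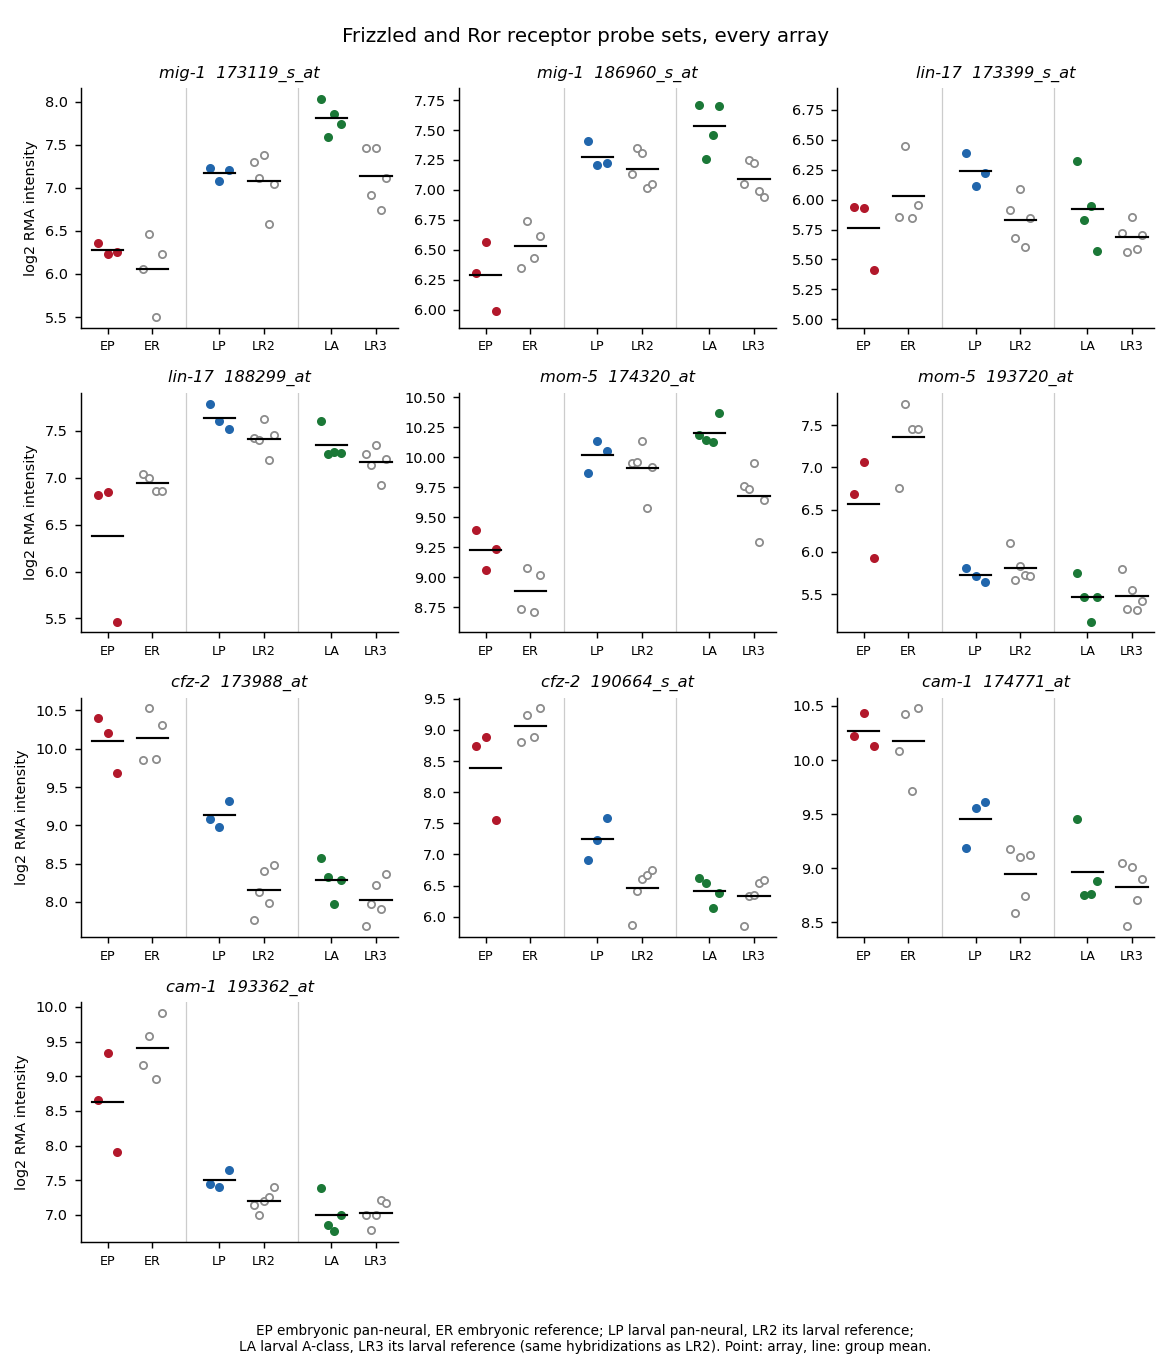
Log2 RMA intensity (y axis) of the 10 Frizzled and Ror probe sets in every array, with each neuronal sample to the left of its reference and a line at the group mean. Both cfz-2 probe sets separate the larval pan-neural arrays from their reference, and both mig-1 probe sets and mom-5 174320_at separate the larval A-class arrays from theirs.

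Among the receptors in the larval A-class sample, both probe sets of mig-1 and 1 of the 2 of mom-5 had the largest changes, and none passed the threshold by limma. The paper, which used SAM, lists mig-1 as enriched in larval A-class neurons. It also reports GFP from a mig-1 promoter reporter in VA and DA motor neurons. MIG-1 is a Frizzled that acts in the migration of the Q neuroblast descendants and of the HSN neurons. Probe set 173119_s_at had 8.03, 7.59, 7.86 and 7.74 in the larval A-class sample, against 7.47, 6.91, 7.46, 6.74 and 7.11 in the larval reference. Probe set 186960_s_at had 7.71, 7.26, 7.46 and 7.70, against 7.05, 7.25, 7.23, 6.99 and 6.94. At both probe sets all 4 A-class arrays lay above all 5 reference arrays, at the second by a narrow margin. The changes were 0.67 ± 0.16 and 0.44 ± 0.11 (SE), or 1.59-fold and 1.36-fold, with adjusted p of 0.0584 and 0.0679. MOM-5 acts with MOM-2 in the early embryo and in Q cell migration, and its probe set 174320_at had 10.18, 10.14, 10.13 and 10.37 in the A-class sample, against 9.76, 9.74, 9.95, 9.29 and 9.64 in the larval reference. These groups did not overlap, and the change of 0.53 ± 0.12 (SE), or 1.44-fold, had an adjusted p of 0.0496. Its other probe set, 193720_at, read 5.75, 5.46, 5.17 and 5.46 in the A-class sample, against 5.8, 5.32, 5.55, 5.31 and 5.41 in the reference, which overlap, with a change of −0.02 (adjusted p 0.975), so the 2 probe sets of mom-5 gave different results. Probe sets that did not overlap between groups thus numbered 3 of 15 in the A-class comparison, all higher, where 3.92% of all probe sets were higher without overlap and 2.81% lower. Larval reference replicate 4 held the lowest value of the larval reference for mig-1 173119_s_at and for mom-5 174320_at. On that array the 3′ minus 5′ log2 difference of the actin control, a sign of how much transcripts were shortened, was 1.67, against 3.06 to 4.54 on the other 4 larval references and 3.04 to 3.92 on the A-class arrays. The summed intensity of the hypodermis list was 22043 to 31963 in the A-class sample and 13651 to 22510 in its reference, with 0 of 11 probe sets called by limma, and the part of either measure in these values was not tested. Leaving out 1 array at a time gave log2 changes of 0.57 to 0.75 for mig-1 173119_s_at (adjusted p 0.0449 to 0.143) and 0.43 to 0.60 for mom-5 174320_at (0.0340 to 0.155).

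In the larval pan-neural sample these receptor probe sets lay among their reference values. For mig-1 173119_s_at the 3 arrays read 7.23, 7.07 and 7.20, against 7.30, 7.11, 7.38, 6.58 and 7.05 in the reference, a change of 0.09 ± 0.17 (SE, adjusted p 0.822). For mom-5 174320_at they read 9.87, 10.14 and 10.06, against 9.96, 9.96, 10.14, 9.57 and 9.92, a change of 0.11 ± 0.13 (SE, adjusted p 0.676). The larval A-class minus the larval pan-neural enrichment was 0.58 ± 0.12 (SE) for mig-1 173119_s_at, with an adjusted p of 0.0138 and a fold just under the threshold. It was 0.34 ± 0.13 for mig-1 186960_s_at (adjusted p 0.142), 0.42 ± 0.10 for mom-5 174320_at (0.0332) and 0.07 ± 0.14 for mom-5 193720_at (0.822). At an adjusted p under 0.05, 4 of the 15 probe sets passed in this contrast, mig-1 and mom-5 with 1 probe set each above 0 and cfz-2 with both below 0, where 13.7% of all probe sets did. Each of these 4 lost that level in some alternative fit, with its sign kept in all. The highest adjusted p was 0.208 for mig-1, 0.234 for mom-5, 0.108 for cfz-2 173988_at and 0.194 for cfz-2 190664_s_at. In embryonic pan-neural cells mig-1 read 6.36, 6.23 and 6.25 at 173119_s_at, against 6.06, 6.46, 5.50 and 6.23 in the reference, and 6.31, 6.57 and 5.99 at 186960_s_at, against 6.35, 6.74, 6.43 and 6.62. The groups overlapped at both probe sets, and the log2 differences were 0.22 ± 0.21 and −0.24 ± 0.17 (SE), with opposite signs and adjusted p of 0.518 and 0.349.

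LIN-17 is the Frizzled that receives LIN-44 in the tail and sets the polarity of dividing cells and of neurites. At 173399_s_at it had 6.39, 6.11 and 6.23 in the larval pan-neural sample, against 5.92, 5.68, 6.09, 5.60 and 5.85 in the larval reference. The groups just failed to overlap, and the change of 0.42 ± 0.13 (SE), or 1.33-fold, had an adjusted p of 0.0498. At 188299_at the arrays read 7.79, 7.61 and 7.52, against 7.42, 7.40, 7.62, 7.19 and 7.46, which overlap, and the change was 0.22 ± 0.11 (adjusted p 0.245). Its A-class values were 0.23 ± 0.14 and 0.18 ± 0.11 (SE) over the reference, which did not pass (adjusted p 0.474 and 0.491). In embryonic pan-neural cells 188299_at read 6.82, 6.85 and 5.47, against 7.04, 7.0, 6.86 and 6.86 in the reference. Replicates 1 and 2 lay just under the reference and replicate 3 far below it, so the change of −0.56 ± 0.32 (SE) rested mostly on that array (adjusted p 0.279). Without replicate 3 it was −0.11 (adjusted p 0.546).

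CAM-1, the worm's Ror receptor tyrosine kinase, acts in cell migration and neurite placement and can also bind Wnts away from other receptors. At 174771_at it had 9.19, 9.56 and 9.62 in the larval pan-neural sample, against 9.18, 8.58, 9.11, 8.74 and 9.13 in the larval reference. At 193362_at it had 7.45, 7.41 and 7.65, against 7.14, 7.0, 7.20, 7.26 and 7.41. The neuronal arrays were above the reference arrays at both probe sets, by a narrow margin, and the changes of 0.51 ± 0.17 and 0.30 ± 0.11 (SE) did not pass (adjusted p 0.0660 and 0.0984). With cfz-2, lin-17 and cam-1 counted, 5 of 15 probe sets did not overlap between groups in the larval pan-neural comparison, all 5 higher, where 12.5% of all probe sets were higher without overlap and 11.5% lower. Of the 10 receptor probe sets 9 had a value above the reference there, and of the 5 ligand probe sets 1 did, where 50.3% of all probe sets did. The same count for the receptors was 8 of 10 in A-class RNA, where 47.6% of all probe sets were above the reference, and 3 of 10 in embryonic pan-neural cells, where 55.8% were. For cam-1 the A-class values were 0.14 and −0.03 over the reference (adjusted p 0.785 and 0.955), with replicate 1 the highest array at both probe sets. At the embryonic stage, pan-neural arrays of cam-1 read 10.22, 10.44 and 10.13 at 174771_at, against 10.08, 10.43, 9.71 and 10.48 in the reference, and 8.66, 9.33 and 7.91 at 193362_at, against 9.16, 9.58, 8.97 and 9.91. The arrays overlapped at both, replicate 3 was again the lowest, and the changes were 0.09 and −0.77 (adjusted p 0.792 and 0.185), or 0.15 and −0.41 without replicate 3. In the embryonic comparison 2 of 15 probe sets did not overlap, cwn-1 and lin-17 188299_at, both lower, where 13.4% of all probe sets were lower without overlap and 15.3% higher.

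In the embryonic neurons the first probe set of each receptor gene gave a higher enrichment than the second, and none of these differences passed after adjustment. For mom-5, the change was 0.34 ± 0.14 at 174320_at and −0.79 ± 0.31 at 193720_at (SE, adjusted p 0.150 and 0.135). At 193720_at the embryonic pan-neural arrays read 6.68, 7.07 and 5.93, against 6.76, 7.75, 7.45 and 7.45 in the embryonic reference, while at 174320_at they read 9.39, 9.06 and 9.23, against 8.73, 9.08, 8.71 and 9.02. The enrichment at the first probe set exceeded that at the second by 1.14 for mom-5, 0.86 for cam-1, 0.63 for cfz-2, 0.46 for mig-1 and 0.30 for lin-17. For mom-5, cfz-2 and cam-1 the exact 2-sided permutation p was 0.0286, the smallest that 3 against 4 arrays allow, and 0.0858 after Benjamini-Hochberg adjustment over the 15 tests of 5 genes in 3 comparisons. For mig-1 and lin-17 it was 0.114 and 0.371 by the same exact test. Embryonic pan-neural replicate 3 had the widest difference of its group for every one of the 5 genes, and without it the differences were 0.82 for mom-5, 0.56 for cam-1, 0.41 for cfz-2, 0.33 for mig-1 and 0.01 for lin-17. The difference between probe sets ran from −0.02 to 0.20 in larval pan-neural RNA, with the smallest exact permutation p for lin-17 (0.0179, adjusted 0.0858), and from 0.05 to 0.54 in A-class RNA, the highest again for mom-5 (exact permutation p 0.00794, adjusted 0.0858). Over the 15 tests, 14 differences were above 0. These tests share arrays, and both larval comparisons share their reference, so they are not independent. The same count for other genes on the array is not given here, so no conclusion is drawn from it. First and second follow the numbers of the probe sets, and the sources used here do not say where each lies along its transcript. The 3′ minus 5′ log2 difference of the Gapdh control was 0.93, 0.66 and 0.76 in embryonic pan-neural cells, against 1.11, 1.24, 1.02 and 1.27 in the embryonic reference, so the groups differed without overlap. That of the actin control was 3.82, 3.14 and 3.71 in embryonic pan-neural cells, against 3.06, 3.44, 3.54 and 3.30, which overlap, with 2 of the 3 neuronal arrays above every reference array. The part of either measure in the result was not tested.

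**Figure D4:**
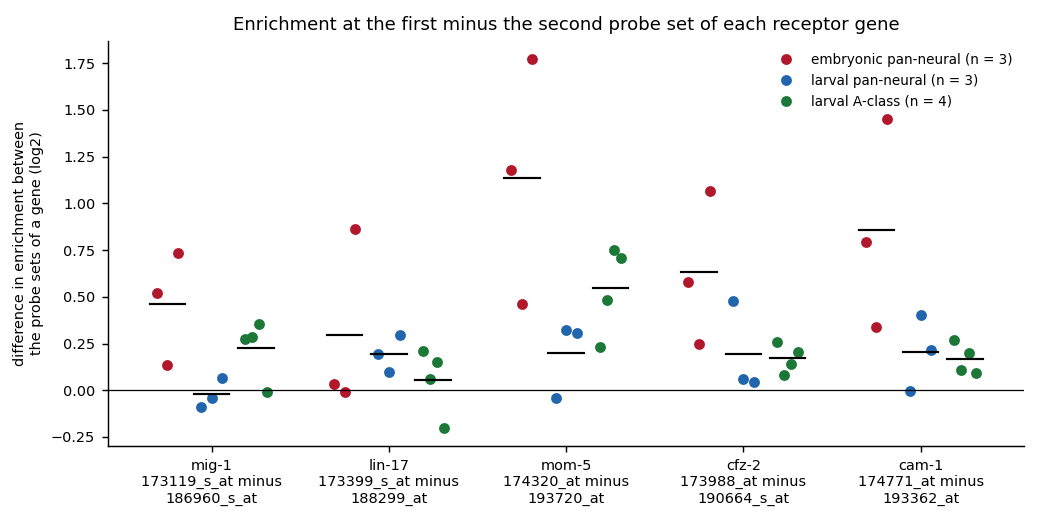
Difference in enrichment between the probe sets of each receptor gene (y axis, log2), with a point for each neuronal array minus the mean of its own reference and a line at the group mean. Embryonic pan-neural replicate 3 is the highest embryonic point for all 5 genes, at 0.73 to 1.77, while the group means of the larval samples lie between −0.02 and 0.54.

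Beside the members, 36 genes of the Wnt pathway were examined (55 probe sets). In embryonic pan-neural cells 0 of 55 were called by limma, with 16 at an unadjusted p under 0.05. In larval pan-neural RNA 3 were higher and 1 lower, and in A-class RNA 0 were called by limma, with 8 at an unadjusted p under 0.05. The median change was −0.18, 0.07 and 0.02 in that order. These counts amount to no larger a share of the list than the shares given above for all probe sets.

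The pathway gene with the largest called change was fmi-1, which encodes Flamingo, a cadherin of the planar polarity route that acts in axon navigation in the ventral cord. Its log2 intensities were 8.45, 8.17 and 8.98 in the larval pan-neural sample, against 6.86, 7.02, 7.13, 7.39 and 7.47 in the larval reference. All 3 neuronal arrays were higher by more than the spread of the reference, with a change of 1.36 ± 0.20 (SE), or 2.56-fold, and an adjusted p of 0.00154, and it kept its call when any 1 array was left out. The call was lost with only the references titled as the set of the larval pan-neural sample (1.10, adjusted p 0.0422), with hybridization day as a fixed block (1.14, 0.0441) and within the shared day (1.14, 0.0922). Its A-class arrays read 8.97, 7.89, 7.66 and 8.74, against 6.60, 6.80, 6.86, 7.08 and 7.29, a change of 1.39 ± 0.27 (SE) with an adjusted p of 0.0228, which was not called. The embryonic pan-neural arrays read 11.75, 11.71 and 10.30, against 10.42, 10.85, 10.03 and 11.08. Replicates 1 and 2 lay above every reference array there and replicate 3 below 3 of the 4, and the change of 0.66 ± 0.40 did not pass (adjusted p 0.304).

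The gene lon-2, which encodes a glypican of the cell surface, read 9.14, 9.16 and 9.15 at 174576_at in the larval pan-neural sample, against 8.46, 8.42, 8.60, 8.11 and 8.40 in the reference. The change was 0.76 ± 0.11 (SE, adjusted p 0.00169) there and −0.10 ± 0.10 at its other probe set 188083_at (adjusted p 0.597). The gene dpy-23 encodes a subunit of the AP2 clathrin adaptor that recycles the Wnt carrier MIG-14, and 175784_at read 9.14, 9.24 and 9.35 in the larval pan-neural sample, against 8.81, 8.74, 8.70, 8.47 and 8.55 in the reference (0.59 ± 0.11, adjusted p 0.00454). Both genes separated the groups without overlap, and the other probe set of dpy-23, 193254_s_at, gave 0.42 ± 0.09 (adjusted p 0.0101). The gene called lower was lit-1, whose Nemo-like kinase acts on POP-1, with 7.68, 7.87 and 8.14 in the larval pan-neural sample, against 8.64, 8.35, 8.70, 8.45 and 8.59 (−0.65 ± 0.13, adjusted p 0.00723). Its other 2 probe sets gave −0.20 and −0.09 and were not called. Leaving out 1 array ended the call of lon-2 in 1 of 8 fits (without larval pan-neural replicate 3, adjusted p 0.0108), of dpy-23 in 6 of 8 (all but without larval pan-neural replicate 1 and larval reference replicate 1) and of lit-1 in 7 of 8 (all but without larval pan-neural replicate 3). All 3 calls were also lost with the replicate block (adjusted p 0.0184 for lon-2, 0.0498 for dpy-23 and 0.0342 for lit-1), with only the references titled as that set (0.0164, 0.0254 and 0.0746), with day as a fixed block (0.0151, 0.0110 and 0.109) and within the shared day (0.0398, 0.0352 and 0.113). With a trended robust prior those of dpy-23 and lit-1 were lost (0.0162 and 0.0157), and with median centring dpy-23 fell just under 1.5-fold.

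Between the neuronal samples, 1 pathway gene was called in each contrast. The Prickle gene prkl-1, of the planar polarity route, had an enrichment of −0.76 in embryonic and 0.39 in larval pan-neural neurons at 181271_s_at (difference −1.14 ± 0.21, adjusted p 0.00258), and the call was lost without larval pan-neural replicate 3 (−1.05, adjusted p 0.0108). The prkl-1 call was also lost with the replicate block (−1.09, adjusted p 0.0193) and with only the references titled as the larval pan-neural set (−1.16, 0.0244). The other probe set of prkl-1, 180400_at, was not called in that contrast, and its value is not given here. The Dishevelled gene dsh-2 had an enrichment of 0.23 in the A-class and −0.41 in the larval pan-neural sample at 175590_s_at (difference 0.65 ± 0.11, adjusted p 0.00751). Leaving out A-class replicate 1, 2 or 3 or any larval pan-neural array ended that call (0.59 to 0.68, adjusted p 0.0125 to 0.0388), and the other probe set of the gene gave 0.12 (adjusted p 0.541). The dsh-2 call was also lost with the replicate block (0.72, adjusted p 0.0327) and with day as a random block (0.61, 0.0330). It was lost in a single fit of all larval samples as well (0.65, 0.101). Further genes were picked after their values were seen. The beta-catenin gene bar-1, which acts in Q cell migration, had 9.12, 9.10, 8.87 and 9.11 in the A-class sample, against 8.27, 8.10, 8.55, 8.47 and 8.67 in the larval reference (0.64 ± 0.12, adjusted p 0.0201), and 8.37, 8.38 and 8.33 in the larval pan-neural sample, against 8.06, 8.16, 8.42, 8.35 and 8.45 (0.07 ± 0.11, 0.783). The difference of these enrichments was 0.57 ± 0.09 with an adjusted p of 0.00574 and a fold of 1.49, just under the fold threshold. The Ryk receptor gene lin-18 had the opposite sign (−0.50 ± 0.09, adjusted p 0.00715), with an A-class enrichment of −0.01, a larval pan-neural one of 0.49 and a fold of 1.41. The A-class arrays of lin-18 read 7.73, 7.74, 7.74 and 7.75, against 7.74, 7.74, 7.81, 7.71 and 7.74 in the reference, and several values were identical. The same references read 7.59, 7.83, 7.99, 7.92 and 7.98 in the larval pan-neural set. The narrow spread in the A-class set limits this result, and no alternative fit is given for lin-18. In embryonic pan-neural cells the beta-catenin gene sys-1, which acts in asymmetric divisions, read 4.44, 4.23 and 3.91 at 174282_at, against 5.61, 7.02, 5.49 and 6.57 in the embryonic reference (−1.98 ± 0.38, adjusted p 0.0144). These neuronal values lay near the low end of the intensity range of their arrays. The change at the other probe set of sys-1, 187605_at, is not given here. None of bar-1, lin-18 and sys-1 was called.

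**Figure D5:**
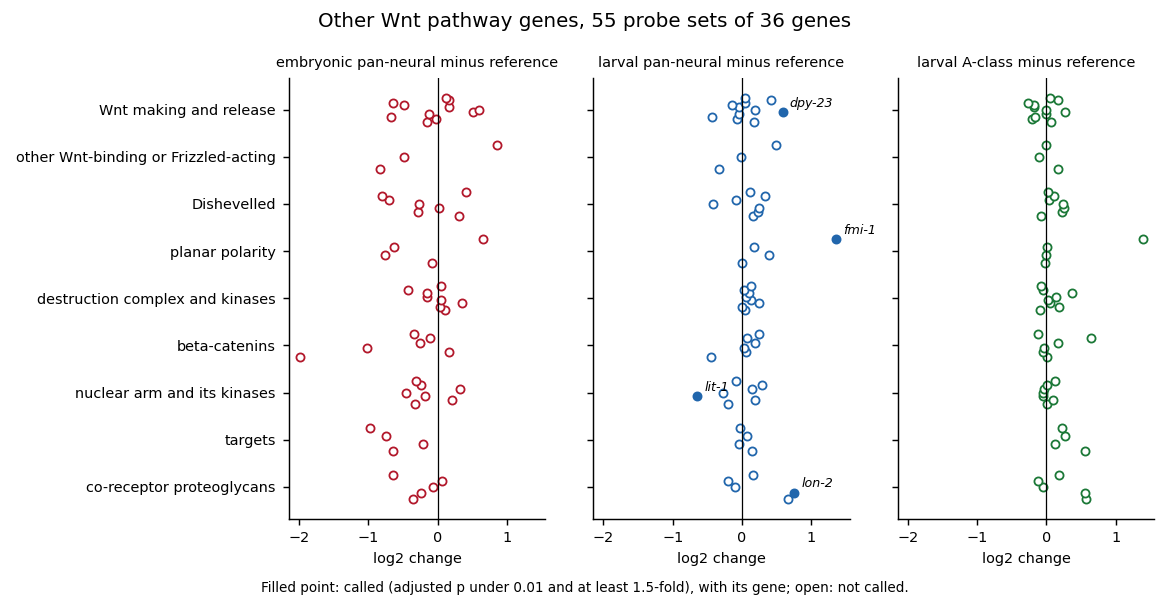
Log2 change of the 55 probe sets of 36 other Wnt pathway genes, by step of the pathway, in each neuronal sample minus its own reference. Filled points are the 4 calls, all in the larval pan-neural sample, fmi-1, lon-2 and dpy-23 to the right of 0 and lit-1 to the left.

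The probe sets whose enrichment varied most like that of a called member over the 10 neuronal arrays were ranked by Pearson's r, as a description. For cwn-1 they belonged to lin-39 (r = 0.981), mab-5 (0.976) and dma-1 (0.969). The Hox genes lin-39 and mab-5 stand in the pathway list as known Wnt targets in the Q lineage and the vulval cells, and lin-39 read 4.99, 5.20 and 4.89 in embryonic pan-neural cells, against 5.50, 6.24, 5.97 and 6.29 in the embryonic reference. For cfz-2 173988_at they were daf-14 (0.982), which encodes a Smad protein, C29H12.6 (0.979) and lrch-1 (0.974). The 10 arrays fall into 3 samples, so these values reflect differences between samples as much as those between arrays.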

How the data were processed

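Transcripts were measured in 24 samples of 19 hybridizations. The deposited values are intensities per probe set on a linear scale, which the authors computed by RMA (background correction, quantile normalization, probe summary), separately for the embryonic, larval pan-neural and larval A-class sets. The deposited array settings hold no expression values and gave hybridization days, chip lots and wash protocols. The titles place 3 larval references with the embryonic set. Their quantiles lay within 0.361 (log2) of the larval pan-neural set and at least 0.805 apart from the embryonic set at their widest gap, so they were used with the larval set.

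Intensities were turned to log2, and 77 control probe sets were left out. Of 22548 probe sets, 20766 had a single gene in the probe annotation, and 20701 of their gene numbers were found in RefSeq (WBcel235). Tests used limma 3.58.1 (lmFit, eBayes) in R 4.3.3, with p-values adjusted across the probe sets by the Benjamini-Hochberg method, in place of SAM, which the study used. A call needed an adjusted p under 0.01 and a 1.5-fold change. The A-class and larval pan-neural enrichments were compared after subtracting reference means, and the embryonic and larval pan-neural ones in a single fit of 4 groups. The SE and p of the A-class contrast therefore leave out the spread of the reference arrays. These were the same hybridizations in both sets, but their values differ between the sets, so their noise need not cancel. SE is the moderated standard error. The number of arrays limits the precision. The labels call the arrays biological replicates. The scripts were tested on simulated data.

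The members and gene lists were chosen with earlier results of these data known. The text names every member probe set, every pathway gene called in a comparison, and the 3 probe sets most like each called member. Alternatives were a replicate block, an intensity filter (mean log2 of at least 6), median centring, a trended robust prior, hybridization day or chip lot as a block, an adjusted p under 0.05, fewer references, and leaving out each array. The A-class and larval pan-neural enrichments were also compared in a single fit of all larval samples.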

Additional observations from a re-analysis of the deposited data

Results flagged for a closer look

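The enrichment of the ligand gene cwn-1 differed between embryonic and larval pan-neural neurons by a test of the difference itself, with a log2 value of −1.17 ± 0.25 (SE, limma, adjusted p 0.00750). It no longer passed the threshold with the replicate block (−1.09, adjusted p 0.0217), with median centring (−1.14, 0.0106), with only the references titled as the set of the larval pan-neural sample (−1.07, 0.0556) or without any 1 of 11 of the 15 arrays. The gene was lower than the reference mean in 3 of 3 embryonic pan-neural arrays and in 3 of 3 larval pan-neural arrays.

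A single array stood apart from the rest of its group in 2 of the 60 sets of 4 or 5 arrays examined for the 15 probe sets, by the gap to its nearest neighbour relative to the range of the group. Chance flags about 1 in 20 groups. For lin-17 188299_at, larval A-class replicate 1 read 7.60, and the other A-class arrays lay between 7.26 and 7.28. That array was also the only one with its wash protocol, whose part in the value was not tested. For mom-2, larval reference replicate 5 read 6.82 in the set of the larval pan-neural sample, and the other references lay between 7.0 and 7.06.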

How the results depend on the processing

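Of the values that the alternatives gave for the 75 changes of single member probe sets, 1189 kept their direction and their side of the threshold, 28 no longer passed it, 7 newly passed it and 57, none of them called, took the other sign. The number of members called lower in embryonic pan-neural cells was 0 with hybridization day as a random block (cwn-1 −1.49, adjusted p 0.0120). With chip lot as a random block, chosen after seeing the data, cwn-1 kept its call at −1.41. Each lot held arrays of 1 group only, so that fit cannot separate lot from group and does not show that the call is independent of lot. The number called higher in the larval pan-neural sample was 2 at an adjusted p under 0.05, 0 with only the references titled as its set (cfz-2 173988_at 0.90, adjusted p 0.0408), and 0 with day as a fixed block (0.92, 0.0481) or within the shared day (0.92, 0.0865), both chosen after seeing the data. The number called lower in the contrast of embryonic and larval pan-neural enrichment was 0 with median centring (cwn-1 −1.14, adjusted p 0.0106), 0 with only those references (−1.07, 0.0556) and 3 at an adjusted p under 0.05. In the contrast of A-class and larval pan-neural enrichment 2 were lower at an adjusted p under 0.05. Leaving out 1 array gave 0 to 1 calls lower in embryonic pan-neural cells (7 fits), higher in the larval pan-neural sample (8 fits), lower in the first contrast (15 fits) and lower in the second (12 fits).

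Replicate numbers gave no clear sign of pairing between samples. Same-numbered arrays deviated from their group means with correlations of −0.425 to 0.333, and 3 of 10 neuronal arrays correlated best with their own number. With so few arrays per group this check cannot exclude pairing. With the replicate block, the contrast of pan-neural enrichments had 0 members lower (cwn-1 −1.09, adjusted p 0.0217), and in the larval pan-neural sample cfz-2 173988_at was no longer called (1.03, adjusted p 0.0109) while 190664_s_at was (0.95, 0.00792). The block left 439, 983 and 12 of all probe sets called in embryonic pan-neural cells, in the larval pan-neural and in the A-class sample, against 1069, 2126 and 201 without it.

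Small changes that were not called took the other sign at sizes of at most 0.16. The replicate block gave 0.011 for cfz-2 173988_at in embryonic pan-neural cells, and in the larval pan-neural sample 0.010 for cwn-2, −0.14 for egl-20 and −0.094 for mig-1 173119_s_at, and 0.0071 for cam-1 193362_at in the A-class sample. Median centring gave −0.0011 for egl-20 in the larval pan-neural sample and 0.012 for mom-2 in the contrast of pan-neural enrichments. Only references titled as the set gave 0.0028 for mom-5 193720_at in the larval pan-neural sample and −0.14 for mig-1 173119_s_at in that contrast. The fixed day block and the shared day alone gave 0.050 for cwn-2 in the larval pan-neural sample. Day as a random block gave 0.0074 for cwn-2, 0.0010 for lin-44 and 0.0034 for cam-1 193362_at in the A-class sample. Leaving out 1 array gave ranges across 0. In embryonic pan-neural cells they were −0.0093 to 0.12 for cwn-2, −0.20 to 0.16 for cfz-2 173988_at and −0.065 to 0.19 for cam-1 174771_at. In the larval pan-neural sample they were −0.21 to 0.10 for cwn-2, −0.12 to 0.11 for egl-20, −0.23 to 0.025 for lin-44 and −0.040 to 0.16 for mig-1 173119_s_at. In the A-class sample they were −0.081 to 0.0057 for mom-2, −0.028 to 0.21 for cam-1 174771_at, −0.058 to 0.035 for cwn-2, −0.089 to 0.074 for lin-44, −0.16 to 0.049 for cam-1 193362_at, −0.11 to 0.080 for mom-5 193720_at and −0.036 to 0.18 for cfz-2 190664_s_at. In the contrast of pan-neural enrichments they were −0.10 to 0.091 for mom-2, −0.054 to 0.26 for mig-1 173119_s_at and −0.040 to 0.27 for cwn-2. In the contrast of A-class and larval pan-neural enrichment they were −0.11 to 0.20 for cwn-2, −0.041 to 0.22 for lin-44, −0.028 to 0.17 for mom-5 193720_at and −0.13 to 0.030 for lin-17 188299_at. The cause of these changes was not tested.

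Counts of all probe sets moved by more than 1.5 times under some alternatives. With day as a random block 341 were called in embryonic pan-neural cells, with chip lot as a random block 3020 (estimated correlation −0.203), and 3032 at an adjusted p under 0.05, against 1069. In the larval pan-neural sample 384 were called with only the references titled as its set, 425 with the fixed day block, 0 within the shared day (4 arrays) and 3278 at an adjusted p under 0.05, against 2126. In the A-class sample 116 were called with the day block and 552 at an adjusted p under 0.05, against 201. In the contrast of pan-neural enrichments 751 were called after the intensity filter, 262 with only those references, 555 with the replicate block and 2702 at an adjusted p under 0.05, against 1128. In the contrast of A-class and larval pan-neural enrichment 454 were called with the day block, 489 with the replicate block and 2317 at an adjusted p under 0.05, against 1287. Leaving out 1 array also moved them. The embryonic comparison had 24 to 566 higher and 89 to 762 lower, against 442 and 627, with the lowest counts without pan-neural replicate 1 and the highest without reference replicate 1. The ranges were 887 to 1343 and 198 to 882 in the larval pan-neural sample, against 1372 and 754, 82 to 153 and 7 to 39 in the A-class sample, against 175 and 26, 208 to 489 and 401 to 917 in the contrast of pan-neural enrichments, against 423 and 705, and 91 to 629 and 446 to 916 in the contrast of A-class and larval pan-neural enrichment, against 440 and 847. Of the 15 members, 10 or 11 passed the intensity filter, and the call of cwn-1 and of cfz-2 173988_at stood there. The lowest signal was that of lin-44, with group means between the 21st and 34th percentile of the array.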
